A study of Mus musculus with 9 samples.

Results

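The 10 genes described here encode the NF-kappaB transcription factor subunits (Rela, Nfkb1, Nfkb2, Relb and Rel), the inhibitors Nfkbia and Nfkbie, the ubiquitin-editing enzyme gene Tnfaip3, and the nuclear IkappaB-like regulators Nfkbiz and Bcl3. They were picked by gene symbol and are 10 of the 48230 genes kept from the deposited table, whose unit is FPKM (sequenced fragments per kilobase of transcript, corrected for library depth). RNA sequencing was done on BeCon tumor cells, which belong to a mouse model of ovarian cancer, in 9 libraries. Of these, 4 came from BeCon-bearing B6 mice given the vehicle control and 4 from such mice given YKL-05-099, a compound that inhibits salt-inducible kinases. These enzymes phosphorylate CRTC coactivators of CREB and class IIa histone deacetylases. In these 8 libraries the tumor cells had been sorted out of ascites as viable CD45- MHCI+ cells. The remaining library came from BeCon cells cultured in vitro, without a drug named and without a replicate. The sources used here do not give the dose, the length of treatment, the age of the mice or further alleles of the cells. The titles do not state whether a library holds 1 mouse or several, so each p-value rests on the spread among libraries, which may in part be technical. All vehicle library names begin with one number and all YKL-05-099 library names with another. A cage or handling batch behind those numbers, if there was one, and the treatment cannot be told apart.

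NF-kappaB proteins act as dimers. In resting cells IkappaB proteins hold the dimers in the cytoplasm. Signals from TNF, interleukin-1 or Toll-like receptors activate the IkappaB kinase complex, IkappaB is degraded, and dimers such as RelA with p50 enter the nucleus. A second, slower route through the kinase NIK turns the Nfkb2 product p100 into p52, which pairs with RelB. The dimers switch on several of their own regulators, Nfkbia, Nfkbie and Tnfaip3 among them, so the messenger RNA of these inhibitors is widely read as a trace of recent NF-kappaB activity. In ovarian tumor cells the pathway is known for its cytokine and chemokine targets and for its part in cell survival.

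The depth was roughly 23000000 to 35000000 fragments per library, an approximate figure read from the smallest steps of the FPKM values, and 11423 to 11895 genes per library reached an FPKM of 1. At these depths the lowest value of any of the 10 genes rested on about 400 fragments (Nfkbie in YKL-05-099 library 2 and Nfkbiz in culture), and all 10 genes passed the filter for testing. Of 10 ovarian epithelial tumor markers, Wt1, Krt18, Krt19, Krt8 and Msln were expressed in all libraries, and Cldn3 at 1.34 to 6.76 FPKM. Krt7 and Muc16 stood at 19.4 to 37.8 and at 5.77 to 11.1 FPKM in the mouse libraries and were near absent in culture, at 0.0804 and 0.112 FPKM. Pax8 reached at most 0.173 FPKM in the mouse libraries and was at 0 in all YKL-05-099 libraries (0.202 FPKM in culture), and Epcam stood at 0.457 FPKM on average after vehicle and at 0 in culture, so these epithelial markers were near absent. After YKL-05-099, 3 of the 10 tumor markers lay below all vehicle values (Wt1, Krt19 and Epcam) and 2 above (Krt18 and Muc16). Over the 11790 genes tested for treatment these shares were 13.5% and 26.5%. Markers of other cells also differed. The summed FPKM of 15 pan-leukocyte markers lay between 56.2 and 105 in the vehicle libraries, between 23.1 and 40.0 after YKL-05-099 and at 20.7 in culture. For 9 of the 15 every YKL-05-099 value lay below every vehicle value, against the 13.5% of tested genes. Only 10 of the 15 passed the filter of that test. The 14 macrophage markers summed to 134 to 292 FPKM after vehicle, to 19.3 to 72.9 after YKL-05-099 and to 10.1 in culture, with 11 of 14 below all vehicle values. The 4 erythroid markers summed, in the same order, to 213 to 1327, to 1.32 to 81.3 and to 0.188 FPKM. B cell markers, 6 in all, summed to 2.91 to 12.7, to 0.448 to 0.938 and to 0.453 FPKM. The 7 fibroblast markers summed to 609 to 654, to 517 to 597.5 and to 310 FPKM, with 6 of 7 below all vehicle values after YKL-05-099. In culture 4 of the 7 reached 1 FPKM. These were Dcn at 243, Col1a1 at 32.2, Col3a1 at 23.6 and Pdgfra at 10.5 FPKM. Dcn held most of each sum, at 523 FPKM on average after vehicle and 503 after YKL-05-099, with overlap. The fibroblast sum thus need not stand for fibroblasts alone. T cell markers stayed near the floor, with a sum of 0.930 to 1.03 FPKM after vehicle and Cd3e, Cd3d, Cd4, Cd8a and Cd2 under 0.1 everywhere. The 6 neutrophil markers summed to 1.37 to 3.64 FPKM after vehicle and to 0.200 to 1.53 after YKL-05-099, with 1 of 6 below all vehicle values. The 4 endothelial markers summed to 5.46 to 8.25 and to 5.41 to 6.98 FPKM, with none below all vehicle values and 1 above. In bulk RNA, fewer cells of a type and less RNA per cell cannot be told apart.

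The stretch just upstream of the transcription start is shown for the 5 genes whose promoter held a kappaB decamer, the DNA motif that NF-kappaB dimers bind. RefSeq windows on GRCm38.p6 were matched for 7 of the 10 genes, and Nfkb1, Relb and Nfkbiz were not matched. Within 250 bases before the start, a match to the kappaB decamer consensus on either strand was found for Nfkb2, Rel, Nfkbia, Nfkbie and Tnfaip3, which is 5 of 7, and not for Rela or Bcl3. Over all RefSeq promoters, 7.25% of 32851 windows of the same length, or 8.23% of 27025 genes in any of their windows, held one. The letters TGACG, the core of the motif that CREB binds, searched on both strands, occurred in the windows of Nfkb2, Rel and Tnfaip3 and in 17.8% of all windows. A match is a description of the letters and shows no binding. The 130 bases before the first RefSeq start are printed in the direction of the gene, with matches to either motif in capitals and overlapping matches joined. They lie at chr19:46304607-46304736 (plus strand) for Nfkb2, chr11:23770970-23771099 (minus) for Rel, chr12:55492648-55492777 (minus) for Nfkbia, chr17:45555570-45555699 (plus) for Nfkbie and chr10:19015411-19015540 (minus) for Tnfaip3.
Nfkb2: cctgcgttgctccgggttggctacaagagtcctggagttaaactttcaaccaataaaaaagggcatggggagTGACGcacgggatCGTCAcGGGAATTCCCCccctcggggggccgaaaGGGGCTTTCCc
Rel: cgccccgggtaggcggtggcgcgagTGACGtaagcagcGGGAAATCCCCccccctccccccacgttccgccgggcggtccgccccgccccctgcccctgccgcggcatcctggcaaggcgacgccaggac
Nfkbia: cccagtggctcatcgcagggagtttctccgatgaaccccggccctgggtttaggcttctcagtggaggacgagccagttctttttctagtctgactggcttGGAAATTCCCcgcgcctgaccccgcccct
Nfkbie: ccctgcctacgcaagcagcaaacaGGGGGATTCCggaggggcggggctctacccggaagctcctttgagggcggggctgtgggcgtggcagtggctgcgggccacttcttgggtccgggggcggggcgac
Tnfaip3: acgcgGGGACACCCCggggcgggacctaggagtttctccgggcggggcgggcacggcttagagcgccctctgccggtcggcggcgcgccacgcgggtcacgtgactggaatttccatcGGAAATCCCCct
In the Nfkb2 stretch the capitals hold, in order, TGACG, its reverse complement CGTCA, GGGAATTCCCC and GGGGCTTTCC. The run GGGAATTCCCC joins overlapping kappaB matches at -39 to -30, on both strands, and at -38 to -29. Counted from the start, the kappaB run of Rel lies at -92 to -82 and that of Nfkbia at -29 to -20. Tnfaip3 carried one match at -125 to -116 and another at -12 to -3.

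After YKL-05-099 the subunit and regulator transcripts split. Rel, Relb, Nfkb1, Nfkb2 and Bcl3 rose, Nfkbia fell, and Rela, Nfkbie, Nfkbiz and Tnfaip3 did not pass the test. That is 6 of 10 genes called with limma at an adjusted p under 0.05, 5 higher and 1 lower, over all genes tested. The background was high. Of 11790 genes tested, 43.2% were called, 28% higher and 15.1% lower, so 6 of 10 stands not far above the share over all genes. For 2 of the 10 genes, Nfkb1 and Rel, both higher, the vehicle and treated values were fully separate, against 40% of all genes (26.5% with all 4 values higher and 13.5% with all 4 lower). The median log2 change was 0.21 over the 10 genes and 0.05 over all genes tested. After scaling by median of ratios the calls over all genes split into 2573 higher and 2332 lower, and after quantile scaling into 2511 and 2407, against 3304 and 1785 on the deposited values.

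**Figure D1:**
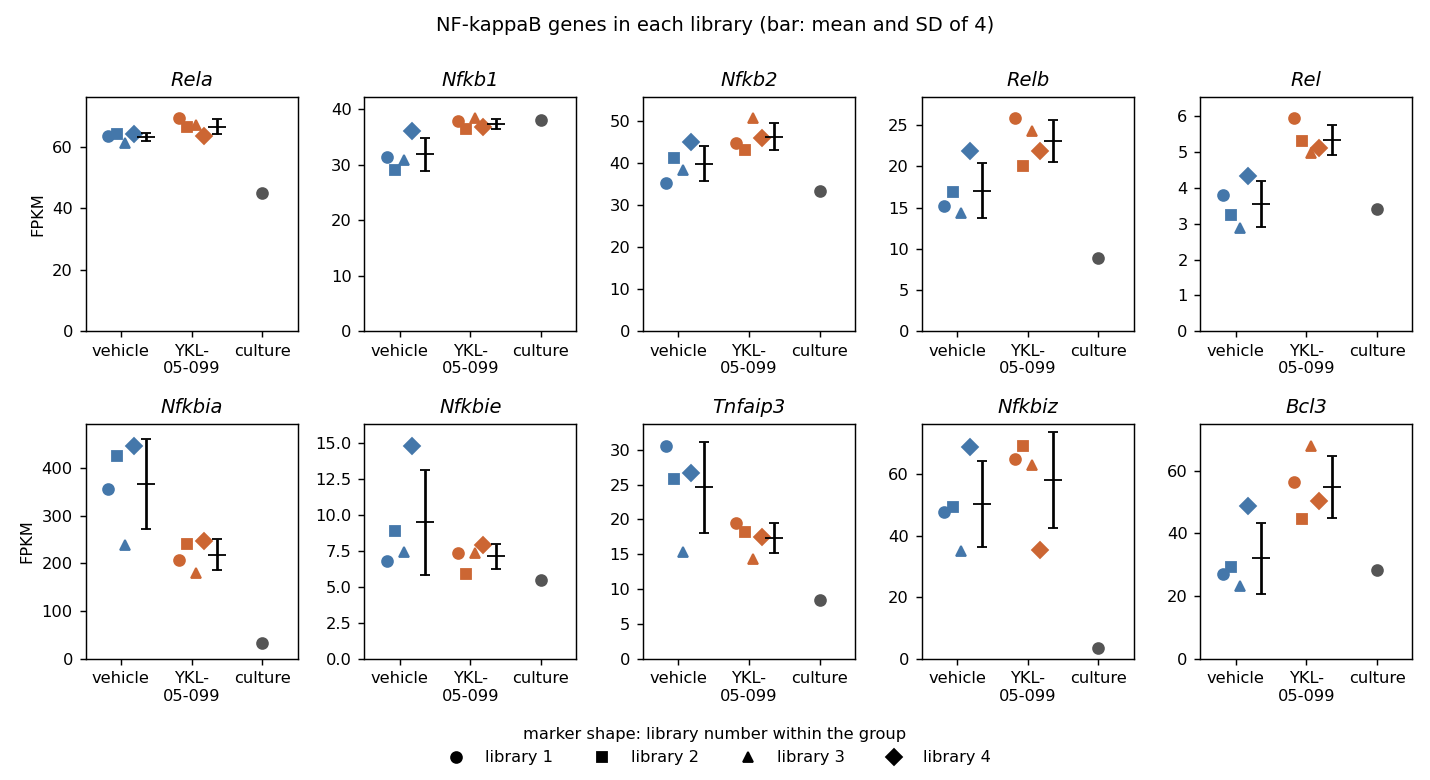
FPKM of the 10 genes in each of the 9 libraries, with 1 panel per gene and its own axis from 0. Marker shape gives the library number within a group, and the black bar gives the mean and SD of 4. Vehicle library 4 holds the highest vehicle value in 8 of 10 panels. The cultured library lies far below the rest for Nfkbia and Nfkbiz.

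Rela (chr19:5637483-5648130, plus strand, GRCm38) encodes RelA, also called p65, the subunit that carries the strong activation domain of the common dimer. In vehicle libraries 1 to 4 it stood at 63.5, 64.3, 61.3 and 64.2 FPKM, and in YKL-05-099 libraries 1 to 4 at 69.5, 66.6, 67.1 and 63.5 FPKM. The groups overlapped through YKL-05-099 library 4, and Rela varied least of all 10 genes among the vehicle libraries, with a coefficient of variation of 2.22%. Its log2 change was 0.07 (95% confidence interval -0.02 to 0.16, adjusted p = 0.172), so a rise of more than 0.16 lay outside the interval. After median-of-ratios scaling it was 0.02 (adjusted p = 0.690).

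Nfkb1 (chr3:135584655-135691547, minus strand) encodes p105, the precursor of p50, which pairs with RelA and which also retains dimers in the cytoplasm while unprocessed. It read 31.4, 29.0, 30.8 and 36.0 FPKM in the vehicle libraries and 37.8, 36.4, 38.4 and 36.7 FPKM after YKL-05-099. Every treated value lay above every vehicle value, the nearest being vehicle library 4. The rise was small, 0.23 on the log2 scale (SE 0.062, adjusted p = 0.0145), from 31.8 ± 2.97 to 37.3 ± 0.922 FPKM (mean ± SD, n = 4).

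Nfkb2 (chr19:46304737-46312090, plus strand) encodes p100, the precursor of p52 in the slower route. Its values were 35.2, 41.2, 38.3 and 44.9 FPKM after vehicle and 44.9, 43.2, 50.8 and 46.1 FPKM after YKL-05-099. The groups overlapped because vehicle library 4 stood above YKL-05-099 libraries 1 and 2. The log2 change of 0.21 (SE 0.076) passed narrowly (adjusted p = 0.0476), and it no longer passed in 12 of 19 alternative analyses, among them median-of-ratios scaling (log2 change 0.16, adjusted p = 0.135) and the loss of any one of 6 libraries (vehicle 1, 2 or 3, YKL-05-099 1, 3 or 4). On the opposite strand the gene overlaps Psd, which reached at most 6.41 FPKM, and the sources used here do not give whether the counting used strand.

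Relb (chr7:19606217-19629438, minus strand) encodes the main partner of p52. It was measured at 15.2, 16.9, 14.3 and 21.8 FPKM after vehicle, and at 25.9, 20.1, 24.3 and 21.9 FPKM after YKL-05-099. Vehicle library 4 lay above YKL-05-099 library 2, and the other 3 vehicle values lay below all treated ones. Relb rose from 17.0 ± 3.35 to 23.0 ± 2.57 FPKM (SD, n = 4), a log2 change of 0.43 (SE 0.12, adjusted p = 0.0185). The call was lost without vehicle library 3 (adjusted p = 0.0504) or without YKL-05-099 library 1 (adjusted p = 0.0521), with log2 changes of 0.35 and 0.37. It was also lost without a filter on low values (adjusted p = 0.0638).

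Rel (chr11:23736847-23770970, minus strand) encodes c-Rel, the subunit best known from lymphocytes, and had the lowest level of the 10 genes. Its values were 3.81, 3.24, 2.87 and 4.32 FPKM after vehicle and 5.95, 5.30, 4.98 and 5.12 FPKM after YKL-05-099. All 4 treated values lay above all 4 vehicle values. The log2 change was 0.48 (SE 0.10, adjusted p = 0.0043), the largest among the 5 subunits, and the call held without any one library.

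Nfkbia (chr12:55489411-55492647, minus strand) encodes IkappaB-alpha, the inhibitor that NF-kappaB itself resynthesizes to end a response, and it was the most abundant of the 10 transcripts per length in all mouse libraries. After vehicle it stood at 355, 426, 239 and 447 FPKM. After YKL-05-099 it stood at 206, 241, 179 and 247.5 FPKM. The groups overlapped only through vehicle library 3, which lay below YKL-05-099 libraries 2 and 4. Nfkbia fell by 0.72 on the log2 scale (SE 0.18, 95% confidence interval -1.13 to -0.30, adjusted p = 0.0112), from 366 ± 93.8 to 218 ± 32.1 FPKM. Across the leave-one-out fits the change ranged from -0.91 (without vehicle library 3) to -0.61 (without vehicle library 4), and it was called in each. The summed pan-leukocyte markers in vehicle libraries 1 to 4 were 80.6, 105, 58.2 and 56.2 FPKM, and their part in the level of Nfkbia was not tested.

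Nfkbie (chr17:45555716-45563169, plus strand) encodes IkappaB-epsilon, a second inhibitor with delayed resynthesis. It read 6.80, 8.90, 7.42 and 14.8 FPKM after vehicle and 7.33, 5.88, 7.35 and 7.89 FPKM after YKL-05-099. Vehicle library 4 stood well above the other 7, which overlapped. The log2 change was -0.32 with a wide interval that spans 0, from -0.75 to 0.12 (adjusted p = 0.210). Without vehicle library 4 it was -0.10, and with the mean level of leukocyte markers as a covariate it was -0.70, in neither case called.

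Tnfaip3 (chr10:19000910-19015657, minus strand) encodes A20, which removes and adds ubiquitin on RIPK1 and other signaling proteins and so damps the path to the IkappaB kinases. After vehicle it was at 30.6, 25.8, 15.3 and 26.7 FPKM, and after YKL-05-099 at 19.4, 18.2, 14.3 and 17.4 FPKM. As for Nfkbia, only vehicle library 3 lay within the treated range. The log2 change of -0.45 (95% confidence interval -0.85 to -0.04) did not pass after adjustment (adjusted p = 0.0704). Without vehicle library 3 it was -0.65 and passed (adjusted p = 0.00164).

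Bcl3 (chr7:19808462-19822770, minus strand) encodes an atypical IkappaB that enters the nucleus and turns p50 or p52 dimers into activators or repressors. It stood at 27.0, 29.2, 23.4 and 48.8 FPKM after vehicle and at 56.4, 44.8, 68.1 and 50.4 FPKM after YKL-05-099. Vehicle library 4 again reached into the treated range, above YKL-05-099 library 2, while the other vehicle libraries lay well below it. Bcl3 rose by 0.80 on the log2 scale (SE 0.20, adjusted p = 0.011), the largest rise among the 10 genes, from 32.1 ± 11.4 to 54.9 ± 9.98 FPKM. The antisense gene Gm16174 overlaps it and reached at most 2.66 FPKM.

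Nfkbiz (chr16:55811375-55838899, minus strand) encodes IkappaB-zeta, a nuclear regulator induced early by interleukin-1 and Toll-like receptor signals and needed for a set of secondary response genes. Values were 47.6, 49.3, 35.0 and 68.8 FPKM after vehicle and 65.0, 69.3, 62.9 and 35.3 FPKM after YKL-05-099. In the treated group 3 libraries lay close together and library 4 stood near the lowest vehicle value. The log2 change was 0.20 with an interval of -0.32 to 0.72 (adjusted p = 0.51). It ran from 0.05 without vehicle library 3 to 0.42 without YKL-05-099 library 4, and the sign held without any one library. YKL-05-099 library 4 also held the lowest treated sum of 10 immediate early genes (Fos, Fosb, Jun, Junb, Egr1, Ier2, Atf3, Zfp36, Dusp1 and Btg2, a list chosen after values were seen), at 3648 FPKM against 5997 to 7052 in the other 3. Immediate early genes respond within minutes to stimuli, cell handling included, and their part in the level of Nfkbiz was not tested.

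**Figure D2:**
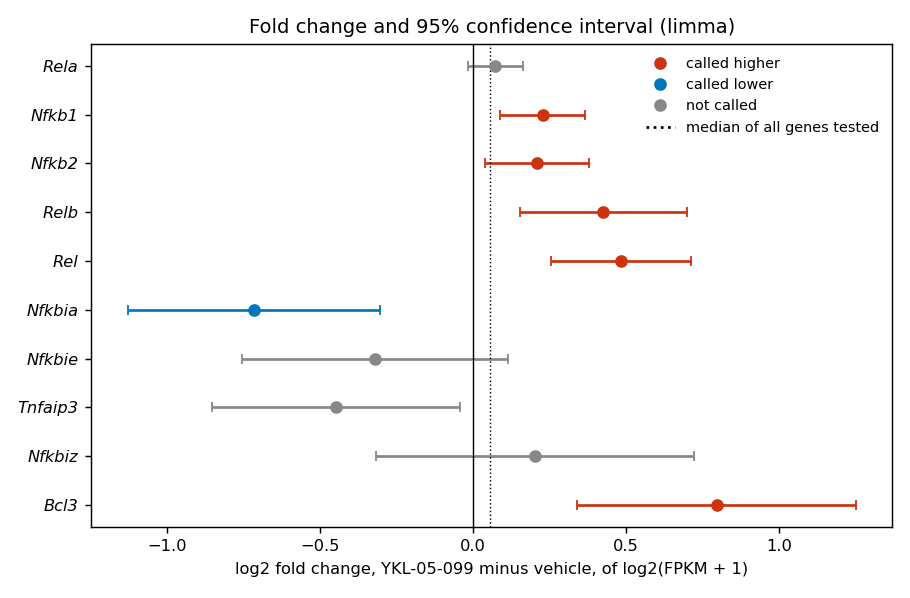
Log2 change of log2(FPKM + 1) between YKL-05-099 and vehicle for the 10 genes, with 95% confidence intervals from limma. Red marks genes called higher, blue the one called lower and grey those not called. The intervals of Rela, Nfkbie and Nfkbiz cross 0, and the dotted line shows the median of all genes tested at 0.05.

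Because leukocyte markers moved with treatment, the comparison was also fitted with a covariate, the mean log2 level of the pan-leukocyte markers. That mean ran from 1.86 to 2.52 after vehicle and from 0.87 to 1.52 after YKL-05-099, without overlap, and the standard errors of the 10 genes grew by 1.83 to 1.99 times. None of the 10 genes was then called, and none had an unadjusted p under 0.05 in that limma fit. Over all 11790 genes 724 were still called, and 2770 had an unadjusted p under 0.05. The signs of the 10 genes were all kept. Log2 changes with the covariate were 0.67 for Bcl3, 0.37 for Rel, 0.29 for Relb, 0.20 for Nfkb2, 0.11 for Nfkb1 and -0.64 for Nfkbia. In culture 5 of the 15 markers reached 1 FPKM, with Lsp1 at 5.97, Cytip at 5.67 and Ptpn6 at 4.23 FPKM. Ptprc, Laptm5, Cd53 and Tyrobp were at 0 there. The covariate thus need not stand for leukocytes alone. Leukocytes express the 10 genes too, and the share of each change that lies in the tumor cells was not tested.

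Added up, the 5 subunit transcripts came to 156 ± 10.9 FPKM after vehicle (range 148 to 171) and to 179 ± 7.16 FPKM after YKL-05-099 (range 172 to 186), with no overlap (SD, n = 4). Rela made up 40.8 ± 2.26% of that sum after vehicle and 37.4 ± 1.17% after YKL-05-099, and these ranges overlapped. Nfkb2 held 25.6% and 25.9%, and Nfkb1 20.4% and 20.9%, each with overlapping ranges. Relb went from 10.9 ± 1.33% to 12.9 ± 0.986% with overlap. For Rel the share was 2.28 ± 0.307% and 2.99 ± 0.236% without overlap. These are shares of transcript per length and say nothing of protein.

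Ratios within a library do not change when all its values are multiplied by one factor. Nfkbia was 5.76 ± 1.37 times the level of Rela after vehicle (range 3.895 to 6.96) and 3.29 ± 0.571 times after YKL-05-099 (range 2.66 to 3.896), and the ranges touched only at vehicle library 3 and YKL-05-099 library 4. In culture Nfkbia stood at 0.758 times Rela. The ratio of Rel to Rela was 0.0561 ± 0.00933 after vehicle and 0.0800 ± 0.00474 after YKL-05-099, without overlap, and that of Relb to Rela 0.269 ± 0.0490 and 0.345 ± 0.0312, with overlap. Both precursors kept their proportion in the mice, with Nfkb2 at 1.26 ± 0.121 and 1.24 ± 0.0641 times Nfkb1, and at 0.880 times in culture.

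**Figure D3:**
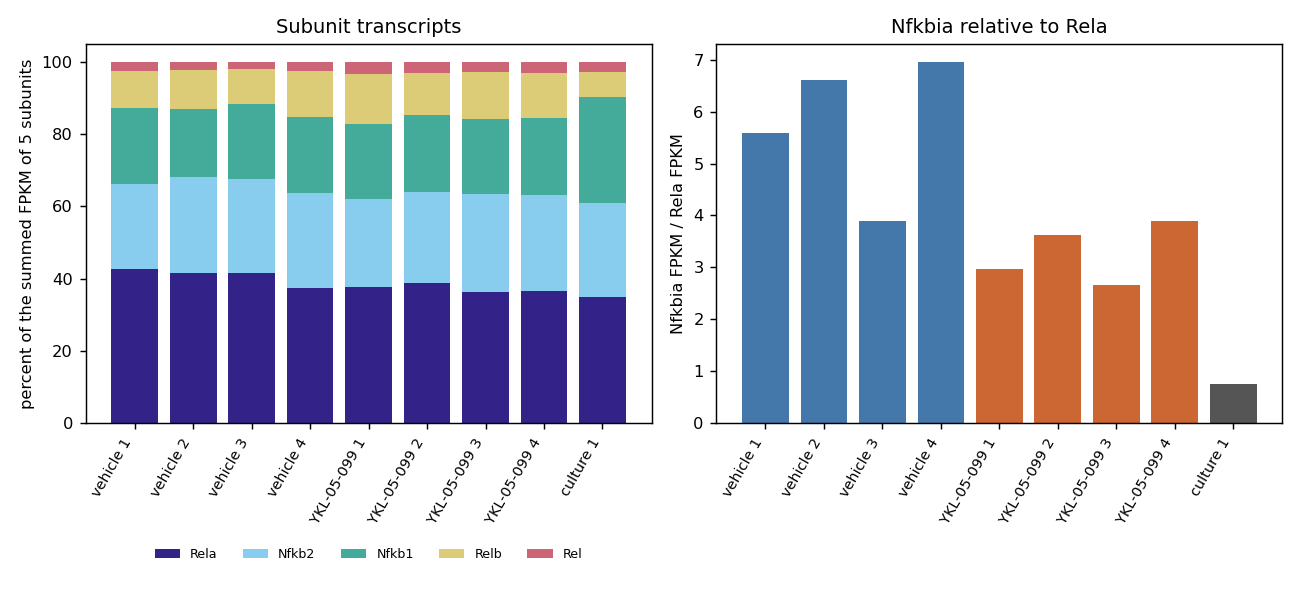
Left, the share of each subunit in the summed FPKM of Rela, Nfkb2, Nfkb1, Relb and Rel in percent, 1 stacked bar per library. Right, the FPKM of Nfkbia divided by that of Rela in the same library. Nfkbia per Rela is 3.895 to 6.96 in the vehicle bars, 2.66 to 3.896 in the YKL-05-099 bars and 0.758 in culture.

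Ranked per length by mean FPKM, the vehicle libraries gave the order Nfkbia, Rela, Nfkbiz, Nfkb2, Bcl3, Nfkb1, Tnfaip3, Relb, Nfkbie and Rel. In that order only the steps from Nfkbia to Rela and from Nfkbie to Rel separated values without overlap, and all other neighbors overlapped. After YKL-05-099 the order was Nfkbia, Rela, Nfkbiz, Bcl3, Nfkb2, Nfkb1, Relb, Tnfaip3, Nfkbie and Rel. Bcl3 and Nfkb2 overlapped there, as did Rela, Nfkbiz and Bcl3 from one to the next and Nfkbie with Rel. In culture Rela came first at 44.9 FPKM, then Nfkb1 at 38.0, Nfkbia at 34.0 and Nfkb2 at 33.4 FPKM.

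The spread within groups was not even. Vehicle library 4 was the highest vehicle library for 8 of the 10 genes and library 3 the lowest for 7. Library 4 was also the highest vehicle library for all 10 immediate early genes, which summed to 8539 FPKM there and to 6090, 6690 and 6245 FPKM in libraries 1 to 3. Coefficients of variation after vehicle were 38.6% for Nfkbie, 35.5% for Bcl3, 27.8% for Nfkbiz, 26.5% for Tnfaip3 and 25.6% for Nfkbia, against 9.35% for Nfkb1 and 2.22% for Rela. The 5 regulators thus each varied more among vehicle libraries than any subunit, of which Relb was the most variable at 19.6%. After YKL-05-099 the coefficient was lower than after vehicle for 9 of the 10 genes and higher for Rela, at 3.67%. Whether immediate early genes account for this spread was not tested.

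**Figure D4:**
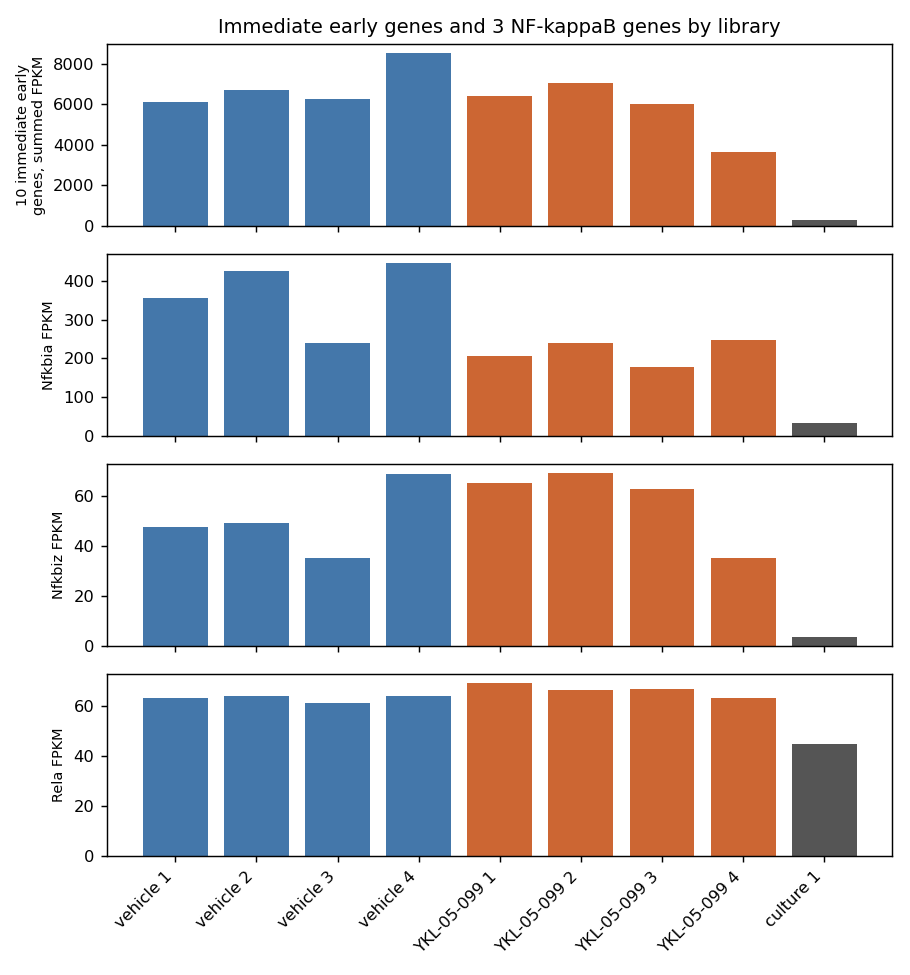
Summed FPKM of 10 immediate early genes (top) and FPKM of Nfkbia, Nfkbiz and Rela below it, 1 bar per library. The immediate early sum is highest in vehicle library 4 at 8539 and lowest in the cultured library at 287. Nfkbia and Nfkbiz are also lowest in culture, while Rela there is 44.9 against 61.3 to 69.5 in the mouse libraries.

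Upstream of the subunits, 11 of 19 receptors and ligands were expressed enough to be tested. Among them 1 rose and 3 fell, 36.4% called against 43.2% of all genes and 27.3% lower against 15.1%, with a median log2 change of -0.09. Il33, an interleukin-1 family alarmin, rose from 7.12 ± 3.46 to 26.3 ± 4.15 FPKM (log2 change 1.82, adjusted p = 0.000254). Tnfrsf12a, the receptor for the cytokine TWEAK, fell from 164 ± 7.23 to 55.7 ± 11.6 FPKM (log2 change -1.56, adjusted p = 2.78e-05), and Il1r1, the signaling receptor for interleukin-1, fell from 19.5 ± 1.47 to 15.2 ± 0.319 FPKM. Tnfrsf1a, the main TNF receptor, fell from 141 ± 12.4 to 123 ± 5.56 FPKM, a call that ended without any one of 5 libraries (vehicle 2 or 4, YKL-05-099 1, 2 or 4), without a filter on low values (adjusted p = 0.08) and with the leukocyte covariate (adjusted p = 0.562). With the leukocyte covariate Tnfrsf12a stayed called. Il33, at 1.57 (adjusted p = 0.0726), and Il1r1, at -0.39 (adjusted p = 0.0671), did not.

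All 23 adaptors and kinases were tested, of which 7 rose and 4 fell, 11 of 23 against the 43.2% of all genes, with a median of 0.04. The rises were small. Ikbke and Tbk1, the IKK-related kinases, went from 6.73 ± 0.856 to 9.54 ± 0.370 FPKM and from 12.1 ± 0.405 to 14.9 ± 0.295 FPKM, and Myd88, the adaptor of interleukin-1 and Toll-like receptors, from 18.9 ± 2.24 to 22.8 ± 0.934 FPKM. Tab3 and Tab2, ubiquitin-binding partners of the kinase TAK1, fell by 0.36 and by 0.22 on the log2 scale, and Traf3, which keeps NIK low, fell by 0.31. The Traf3 call ended without vehicle library 2 or without YKL-05-099 library 1 or 3. No gene of this list was called with the leukocyte covariate. In that fit 8 of 23 had an unadjusted p under 0.05, against 2770 of 11790 over all genes.

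Other restraints of the pathway gave 2 rises and 7 falls among 18 tested of 20, 50% called against 43.2% of all genes and 38.9% lower against 15.1%, with a median of -0.10. Pdlim2, a nuclear ubiquitin ligase for RelA, fell from 25.5 ± 1.12 to 18.4 ± 1.16 FPKM, and it stayed called with the leukocyte covariate. Zc3h12a, which encodes the RNase regnase-1, and Rnf11, a partner of A20, fell by 0.31 and by 0.29 on the log2 scale, and the Zc3h12a call ended without YKL-05-099 library 2. Sigirr, an inhibitory member of the interleukin-1 receptor family, rose by 0.33 and Commd1, which promotes the ubiquitination of RelA, by 0.20, a call that ended after median-of-ratios scaling (adjusted p = 0.0623).

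Known target genes of NF-kappaB had the largest share of calls among the lists. Of 28 tested among 36, 4 rose and 14 fell, which is 64.3% called against 43.2% of all genes, and 50% lower against 15.1%, with a median of -0.37. This list, like the others, was chosen with earlier results of these data known, so its shares are a description and not a test. The largest falls were in the acute-phase gene Saa3, from 45.5 ± 15.6 to 4.00 ± 1.35 FPKM, and in the chemokine genes Ccl2, from 75.5 ± 19.4 to 7.99 ± 0.464 FPKM, and Cxcl2, from 16.1 ± 8.49 to 2.23 ± 1.95 FPKM. The largest rises were in the transcription factor gene Irf1, from 35.3 ± 6.57 to 60.2 ± 6.76 FPKM, in the urokinase gene Plau, from 4.64 ± 0.969 to 7.07 ± 1.08 FPKM, and in Tnfaip8, from 20.4 ± 2.22 to 28.0 ± 2.18 FPKM. With the leukocyte covariate 9 of the 28 target genes were called, against 724 of 11790 over all genes. Saa3, Ccl2 and Plau stayed called, while Irf1 (adjusted p = 0.155), Tnfaip8 (adjusted p = 0.253) and Cxcl2 (adjusted p = 0.882) did not. The log2 change of Cxcl2 went from -2.47 to -0.14 in that fit and that of Plau from 0.52 to 0.94, and the cause was not tested.

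**Figure D5:**
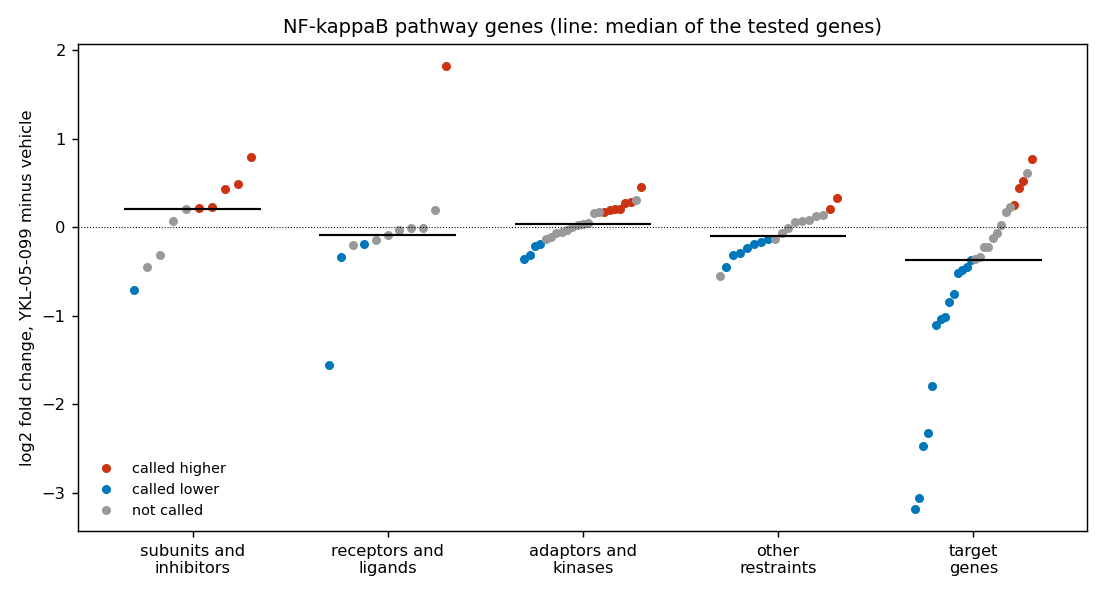
Log2 change between YKL-05-099 and vehicle for the 10 subunit and inhibitor genes and for the tested genes of 4 pathway lists, 1 point per gene in order of size. Horizontal bars show the median of each list, from 0.21 for the 10 genes to -0.37 for the target genes. Red and blue points are genes called higher and lower, and the target genes hold the largest falls, down to -3.19 for Saa3.

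In culture Nfkbia, Nfkbiz and Tnfaip3 lay furthest below their levels in mice, and the other 7 genes were within 1.91-fold of the vehicle mean. With 1 library there is no test, and a gene was taken as apart when no mouse library among the 8 reached its value and it differed from the mean of vehicle by 2 log2 units or more. By that rule 2 of the 10 genes were apart, Nfkbia and Nfkbiz, both lower. Over 12298 genes 5.15% were apart, 3.07% lower and 2.08% higher. These genes had 1 FPKM or more in at least 4 of the 8 mouse libraries or in the cultured library. A gene that entered only through its culture value could be apart only as higher. Nfkbia stood at 34.0 FPKM in culture, 10.8-fold below the vehicle mean, and Nfkbiz at 3.67 FPKM, 13.7-fold below it. Tnfaip3 was at 8.38 FPKM, 2.94-fold below. In all, 7 of the 10 genes lay below every mouse library (36.2% of all genes did, and 73.6% lay outside the mouse range in either direction).

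Among the remaining genes, Relb stood at 8.92 FPKM in culture, 1.91-fold below the vehicle mean, Rela at 44.9 FPKM, 1.41-fold below, and Nfkb2 at 33.4 FPKM, 1.19-fold below. Nfkb1 at 38.0 FPKM, Rel at 3.40 FPKM and Bcl3 at 28.3 FPKM lay inside the range of the mouse libraries. Nfkbie was below that range at 5.47 FPKM, 1.73-fold below the vehicle mean. Nfkb1 made up 29.5% of the subunit sum in culture and Relb 6.94%.

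Among the lists, receptors and adaptors held no gene apart in culture, and the other restraints held Zfp36, which is also an immediate early gene, lower (18.1 FPKM) and Tnip3 higher (3.73 FPKM). Of 30 target genes 9 were apart lower and 2 higher, against 3.07% and 2.08% of all genes. Junb, 1 of the 9, is also on the immediate early list. Cxcl1 stood at 7.95 FPKM in culture against 452 ± 152.5 after vehicle, and Cxcl10 at 4.80 against 48.6 ± 6.86 FPKM. Cxcl2 was listed at 0. Ptgs2, which encodes cyclooxygenase-2, was higher at 42.1 against 6.59 ± 1.34 FPKM, and Ccl5 at 8.80 against 0.496 ± 0.365 FPKM. Ccl5 and Tnip3 did not pass the filter on the mouse libraries. They entered only through their culture values, so both could be apart only as higher. Leukocyte, macrophage and erythroid sums were lowest in culture, and so was every one of the 10 immediate early genes, whose sum was 287 FPKM against 3648 to 8539 in the mice. Fos stood at 5.60 FPKM in culture and at 1021 to 2164 FPKM in the mouse libraries. A sort is stated for the mouse cells and not for the cultured ones, so growth in mice and sorting cannot be told apart. The part of these markers and immediate early genes in the levels of Nfkbia and Nfkbiz was not tested.

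The genes whose log2(FPKM + 1) followed each of the 10 most closely over the 9 libraries, among 10941 named genes, are given as a description. The 9 points include the cultured library, which lies far from the rest for many genes, and the 8 others fall into the treatment groups. Nfkbia was followed most closely by the chemokine gene Cxcl1 (Pearson's r = 0.996), then by Lrrn4 and Colec11. Nfkbiz was followed by Vgll4 (r = 0.993), Rarres2 and Casp12, and Rela by Nr4a1 (r = 0.991), Sp110 and Adora1. For Relb these included Csrp2 (r = 0.985) and Tap2. Nfkb2 was followed by Clec2d (r = 0.975), Pdlim1 and Tmem51, and Nfkb1 by Dnph1 (r = 0.971), Etnk1 and Ppid. Rel had Prkar2b (r = 0.969), Aes and Col20a1, and Bcl3 had Zswim1 (r = 0.957), Cdk8 and Zfp882. Nfkbie was followed by Tgfbr2 (r = 0.956), Rbbp4 and Ddx31, and Tnfaip3 by Odc1 (r = 0.949), Fggy and Dlg2. None of the genes named here is itself one of the 10.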

How the data were processed

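RNA was measured in 9 libraries, whose groups and numbers come from their titles. Values are FPKM per gene, computed by the authors (per the file headers). Named in the submitters' processing notes are GRCm38 and bcl2fastq 2.19. The sources used here do not give the aligner or quantifier. Whole reads could not be recovered from FPKM. The table held 48302 rows. For a repeated gene identifier the row with the highest mean FPKM was kept (65 rows left out), and 7 genes with a failed estimate were left out. Printed starts are the deposited starts plus 1, which equals the GENCODE M21 start for 90.9% of 47786 genes.

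Treatment was tested on log2(FPKM + 1) by limma 3.58.1 under R 4.3.3, unpaired and with a mean-variance trend. A gene was tested if 4 or more of the 8 mouse libraries had it at 1 FPKM or more. P-values were adjusted by Benjamini-Hochberg over all 11790 genes and called under 0.05. A fold change on this scale understates the change of low genes. Culture was compared by a rule of size, over the genes that passed this mouse filter or reached 1 FPKM in culture. In simulated data for 11790 genes the fit called 97% of the 100 given a log2 change of 1, 57% of the 100 given 0.3, and 6 of the 11590 unchanged. Far fewer genes were changed there than the 43.2% called here. The adjustment depends on that share, so these rates need not hold for the real fit. The changed genes were also drawn only from those with a higher mean level than the filter asks, so the rates do not cover low genes. The simulated noise was independent among genes. From each list the 3 called genes with the largest rise and the 3 with the largest fall are named. For each of the 10 genes, the 3 named genes with the highest Pearson correlation are given. One gene that this rule took is not reported here. List genes named for culture were chosen after their values were seen. The genes and lists were chosen with earlier results of these data known. Alternatives covered pseudocount, filter, scaling, trend, replicate block, leukocyte covariate and each library left out.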

Additional observations from a re-analysis of the deposited data

How the results depend on the processing

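With the pan-leukocyte marker mean as a covariate, the calls went from 6 to 0 among the 10 genes, from 4 to 1 (3 at an unadjusted p under 0.05) among receptors and ligands, from 11 to 0 among adaptors and kinases, from 9 to 1 among other restraints, from 18 to 9 among target genes and from 5089 to 724 over all genes. Over all genes 2770 of 11790 had an unadjusted p under 0.05 in that fit. No alternative reversed a sign of the 10 genes. Leaving out 1 library at a time gave 4 to 6 calls among the 10 genes, the lowest without YKL-05-099 library 1. The titles do not say that the replicate numbers pair the libraries. The correlations between same-numbered deviations were -0.02, 0.13, -0.05 and 0.17, which cannot exclude a pairing. With the replicate block 6 of the 10 genes were called, 4 higher and 2 lower: Nfkb2 was not (adjusted p = 0.0561) and Tnfaip3 was (adjusted p = 0.00882). The Tnfrsf1a call also ended there (adjusted p = 0.0611). Without a filter 4 of the 10 were called, and the calls of Nfkb2 and Relb ended. Rel lies below a mean FPKM of 5 and has no value under that filter. The rule for repeated identifiers was chosen after seeing the data, because keeping the longest locus would have dropped the Junb row at 457 to 819 FPKM in vehicle libraries. It left the 6 calls and the 5089 calls at the same numbers. In culture 2 of the 10 genes were apart with pseudocounts of 0.1 and 0.5, with median-of-ratios and TPM scaling and without each vehicle library, and 3 at a distance of 1 log2 unit. No depth interval can be given for single genes, since FPKM keeps only an approximate depth.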
